A study of Cucumis melo with 30 samples.

Results

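Fruit of the melon cultivars YMR and HDB was compared at day 30 after anthesis, the opening of the flower. These libraries were chosen by their labels: 3 of YMR and 3 of HDB, 6 of the 30 in the series, with no measured value used. The labels give the strains as YMR-WF and HDB-OF, the tissue as fruit and the species as Cucumis melo, of the oriental melon type, and they name no treatment and no transgene. Each cultivar was also sampled at days 5, 15, 25 and 35, with 3 libraries a day. Total RNA was extracted and made into cDNA libraries. The labels do not say which part of the fruit was taken, nor whether a group's libraries stem from different fruits or plants, so p-values measure only the spread between these libraries, which may be technical. Libraries of day 30 held 17539921 to 20465812 counts, in a table of 27427 genes. A low-count filter left 18426 genes for the test, of which 567 had no read at day 30. Levels are CPM, counts per 1000000 of a library size scaled by TMM, a correction for composition.

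Melon fruit ends its growth with ripening. In types that ripen with a burst of ethylene, this plant hormone switches on the genes for softening and for aroma esters, and sugars build up in the flesh. Orange flesh holds beta-carotene kept in chromoplasts, the pigment-storing plastids, and white flesh lacks it. None of the 27427 identifiers could be paired with a gene name, so no gene is given a role here, and neither the tissue nor the flesh colour could be checked against marker genes. The cultivars are therefore called YMR and HDB. Genes that share reads with a close copy, an overlapping gene or an antisense gene could not be recognised. In RNA from bulk fruit tissue, fewer cells of a type and less RNA per cell cannot be told apart.

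The comparison asked which transcripts set the cultivars apart late in fruit growth. At day 30, 6159 of the 18426 genes differed (33.4%), 3124 higher (17.0%) and 3035 lower (16.5%) in YMR (edgeR quasi-likelihood test, Benjamini-Hochberg adjusted p under 0.05). Differences were mostly small: the median size among these genes was 0.80 on the log2 scale, with quartiles at 0.49 and 1.49. A fitted difference of at least 2-fold was found for 1211 genes that were higher and 1263 that were lower in YMR, and one of at least 16-fold for 121 and 147. The 3 YMR and 3 HDB libraries did not overlap in CPM for 8921 genes (48.4% of those tested), which took in 5951 of the 6159 that passed (96.6%). Libraries of 1 cultivar correlated at 0.987 to 0.989 across genes in log2 CPM, and libraries of different cultivars at 0.947 to 0.957.

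**Figure D1:**
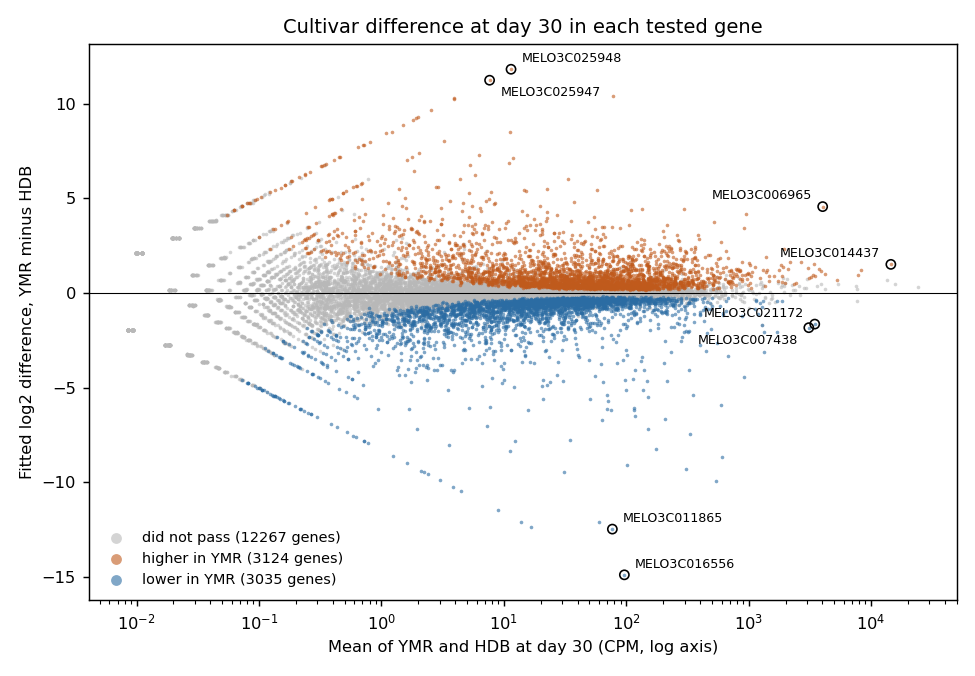
Fitted log2 difference, YMR minus HDB, against the mean level at day 30 in CPM (log axis), 1 point for each tested gene with a read at day 30. The 3124 genes higher and the 3035 lower in YMR are coloured, and 8 genes described in the text are circled.

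The balance of directions depended on the scaling. TMM factors were 0.828 to 0.852 in YMR and 0.974 to 1.04 in HDB, and with library totals alone the test gave 1696 higher and 5439 lower genes, with the median log2 difference of all genes at -0.23 in place of 0.00. The named genes below kept their directions under that scaling.

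Differences were carried unevenly by abundant transcripts. Genes higher in YMR held 41.9% ± 0.77 of the counts in YMR and 25.7% ± 0.40 in HDB (SD, n = 3 each). Genes lower in YMR held 8.85% ± 0.22 in YMR and 19.9% ± 0.79 in HDB. The 10 most counted genes of each library together took 11.4% ± 0.93 of the counts in YMR and 9.08% ± 0.44 in HDB. These shares follow in part from how the genes were called and carry no test.

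**Figure D2:**
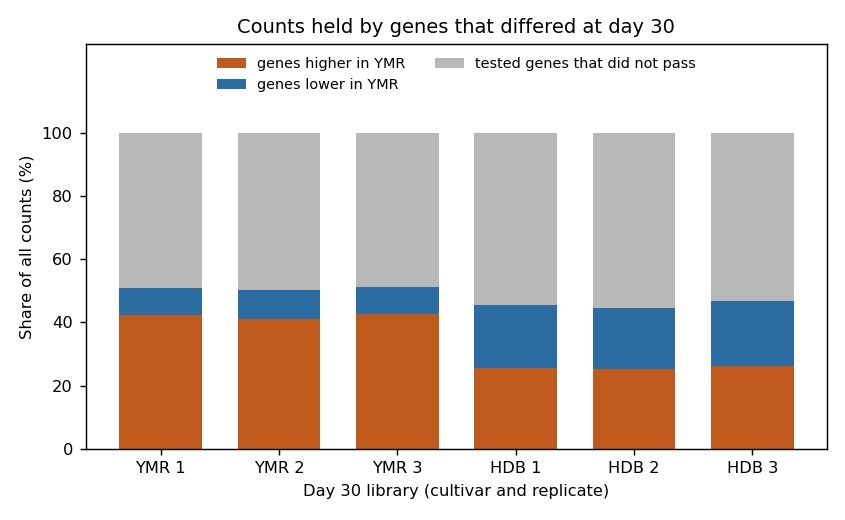
Share of all counts (%) in each of the 6 day 30 libraries held by genes higher in YMR, genes lower in YMR and tested genes that did not pass. The first class takes 41.0 to 42.5% in the YMR libraries and 25.4 to 26.1% in the HDB libraries.

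The widest gaps in CPM, 2 on each side, belonged to genes chosen after their values were seen. MELO3C014437 stood at 20989, 23664 and 19739 CPM in the YMR libraries, against 8842, 6158 and 7538 CPM in the HDB libraries. Its groups did not overlap, with a log2 difference of 1.51 (SE 0.46; edgeR adjusted p = 0.0132). That call was lost without replicate 2 of HDB (1.39, edgeR adjusted p = 0.0572, with 1.71e-05 to 0.0572 over all alternatives). The other, MELO3C006965, had 7949, 8008 and 7196 CPM in YMR and 326, 277 and 373 CPM in HDB, a log2 difference of 4.57 (SE 0.47, edgeR adjusted p = 7.64e-08). In every YMR library of day 30 it was thus far above every HDB library of that day. Both genes did not pass at day 5, but were also higher in YMR at days 15, 25 and 35. In that order of days the log2 differences were 1.87, 1.17 and 1.17 for MELO3C014437 (highest edgeR adjusted p = 0.0380). They were 2.09, 2.61 and 3.17 for MELO3C006965 (highest edgeR adjusted p = 0.00406). At day 15 MELO3C006965 had 7.02, 2.35 and 0.429 CPM in YMR and 1.21, 0.332 and 0.794 CPM in HDB. Its groups thus overlapped on that day, at levels far below those of day 30.

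On the HDB side, MELO3C021172 had 1524, 1844 and 1667 CPM in YMR and 5178, 4692 and 5873 CPM in HDB (log2 difference -1.64, SE 0.16, edgeR adjusted p = 3.40e-08). This difference was not a constant of the cultivars. At day 35 the gene averaged 5713 ± 613 CPM in YMR and 4936 ± 637 CPM in HDB (log2 difference 0.21, SE 0.16, edgeR adjusted p = 0.290), and at day 15 it was higher in YMR by 0.92 (SE 0.16, edgeR adjusted p = 8.35e-05). MELO3C007438 had 1128, 1453 and 1488 CPM in YMR and 5244, 4262 and 5002 CPM in HDB at day 30 (log2 difference -1.83, SE 0.22, edgeR adjusted p = 5.17e-07). It remained lower in YMR at day 35, by a log2 difference of -2.10 (SE 0.22, edgeR adjusted p = 3.23e-08), but did not pass at day 25 (-0.39, edgeR adjusted p = 0.131).

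The largest fitted differences at day 30 belonged to genes with almost no reads in 1 cultivar. They were ranked among genes that passed, with at least 10 CPM in a cultivar and no overlap between the groups. MELO3C025948 had 36.6, 22.7 and 9.37 CPM in the YMR libraries of day 30 and no count in the HDB libraries. With counts summed over the libraries of each group, and 3 counts taken as the floor for the empty HDB group, YMR was at least 432-fold higher (edgeR adjusted p = 6.36e-05). MELO3C025947, the next row of the deposited table, had 21.3, 19.1 and 5.55 CPM in YMR and again no count in HDB, which made YMR at least 289.7-fold higher (edgeR adjusted p = 0.000525). Both genes were on in YMR at day 30 and at day 5, with no count in any YMR library of days 15, 25 and 35. In HDB the only count over all 5 days was 1 of MELO3C025948 at day 25. Neither gene passed the tests below of a change in the difference, against day 25, day 35 or the mean of the other days. The edgeR adjusted p was 0.106 for MELO3C025948 against day 25 and at least 0.9999 otherwise, without a standard error. With groups empty, these tests do not decide whether the difference moved. DESeq2, run as an alternative, did not call either gene at day 30 (adjusted p = 0.154 for MELO3C025948 and 0.207 for MELO3C025947), while the other alternatives did, with the lowest adjusted p at 3.38e-05 and 0.000205.

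On the other side, MELO3C016556 had no count in the 3 YMR libraries and 205, 100.8 and 273 CPM in HDB. Its level in YMR was lower by at least 3076-fold (edgeR adjusted p = 3.73e-10). At day 5 it did not pass, averaging 72.0 ± 34 CPM in YMR and 84.3 ± 15 CPM in HDB (log2 difference -0.23, SE 0.40, edgeR adjusted p = 0.731). MELO3C011865 had 1 count over the 3 YMR libraries and 160, 85.1 and 218 CPM in HDB, a ratio of HDB to YMR of 7387. Counting error alone allows 1325 to 291811 (exact 95% interval). Its day 5 levels were 50.3 ± 19 CPM in YMR and 48.0 ± 7.2 CPM in HDB. For both genes HDB replicate 2 was the lowest of its group at day 30, and still far above YMR.

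Genes read in 1 cultivar only at day 30 were few. With a mean of at least 1 CPM in one cultivar and no count in any library of the other, there were 15 genes on the YMR side and 18 on the HDB side, a choice made on the counts and given without a test. Of these, 2 reached 10 CPM in YMR and 4 in HDB. No count over 3 libraries allows up to 0.0618 CPM in YMR and 0.0541 CPM in HDB. Of the 15 genes, 9 had no count in HDB on any other day, 5 had more than 3 counts in HDB on some other day, and 2 reached a mean of 10 CPM there. Of the 18 genes, 4 had no count in YMR on any other day, 7 had more than 3 counts in YMR on some other day, and 1 reached a mean of 10 CPM.

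Direction also varied with the level of the gene. Among 108 genes with a mean over 1000 CPM at day 30, 44 were higher (40.7%) and 15 lower (13.9%) in YMR. Of 2106 genes between 100 and 1000 CPM, 775 were higher (36.8%) and 315 lower (15.0%). Between 10 and 100 CPM the 7651 genes split evenly, into 1586 higher and 1522 lower, and between 1 and 10 CPM the 4693 genes gave 556 higher (11.8%) and 937 lower (20%). Under 1 CPM, where few reads back each gene or none, 10.6% of 3868 genes passed. With library totals alone, more genes were higher than lower in YMR in the top band (36 and 26), while between 100 and 1000 CPM the order turned, to 421 higher and 662 lower. CPM does not correct for gene length, so a band groups genes by reads and not by transcript number.

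**Figure D3:**
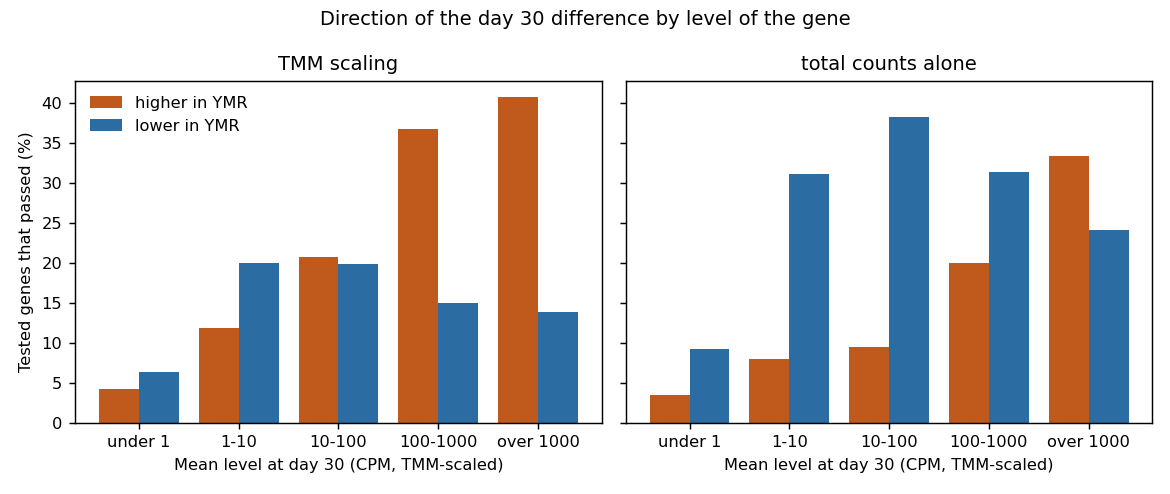
Percentage of tested genes higher and lower in YMR at day 30, in 5 bands of mean CPM, with TMM scaling (left) and with library totals alone (right). With TMM, genes higher in YMR outnumber the lower ones in the 3 bands from 10 CPM up. With totals alone they do so over 1000 CPM only.

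The day 30 differences were next followed in the 24 libraries of the other days. Their values do not enter the day 30 difference, but they share its filter and estimate of spread. Fitted on the day 30 libraries alone, 6524 genes passed, 5549 of the 6159 among them. Of all tested genes, 21.8% differed between the cultivars at day 5, 40.9% at day 15, 48.3% at day 25 and 47.7% at day 35, in either direction. Of the 3124 genes higher in YMR at day 30, 1778 were also higher at day 25 (56.9%, against 26.6% of all tested genes) and 1481 at day 35 (47.4%, against 23.5%). Earlier days shared less: 1092 at day 15 (35.0%, against 20.4%) and 439 at day 5 (14.1%, against 10.4%). As shares of the lists of those days, these were 36.3% of 4903 genes at day 25, 34.2% of 4328 at day 35, 29.0% of 3765 at day 15 and 22.9% of 1918 at day 5. The 3035 genes lower in YMR gave the same order of days by number of shared genes. Of them, 1534 were also lower at day 25 (50.5%, against 21.7%) and 1307 at day 35 (43.1%, against 24.2%). Earlier days again shared less, 1157 at day 15 (38.1%, against 20.5%) and 524 at day 5 (17.3%, against 11.4%). As shares of the lower lists of those days these were 38.4% of 3990, 29.3% of 4456, 30.7% of 3772 and 25.0% of 2094. By that measure day 15 stood above day 35, unlike for the higher genes.

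Median log2 differences of the genes higher in YMR at day 30 were -0.01 at day 5, 0.20 at day 15, 0.49 at day 25 and 0.40 at day 35. For the genes lower in YMR they were -0.05, -0.25, -0.48 and -0.32 in the same order of days, while the median over all tested genes lay between -0.03 and 0.03. Some genes changed sides. In all, 551 of the 6159 passed in the opposite direction at day 25 and 856 at day 35, 194 of them at both. Of the genes higher in YMR, 8.10% did so at day 25 (against 21.7% of all tested genes) and 13.9% at day 35 (against 24.2%). Of the lower ones, 9.82% (against 26.6%) and 13.9% (against 23.5%) did. The change of the difference between the days passed in each, which follows largely from choosing genes that passed in opposite directions. A further 520 passed at no other day, 7.43% of the higher and 9.49% of the lower genes. No such share was computed over all tested genes.

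**Figure D4:**
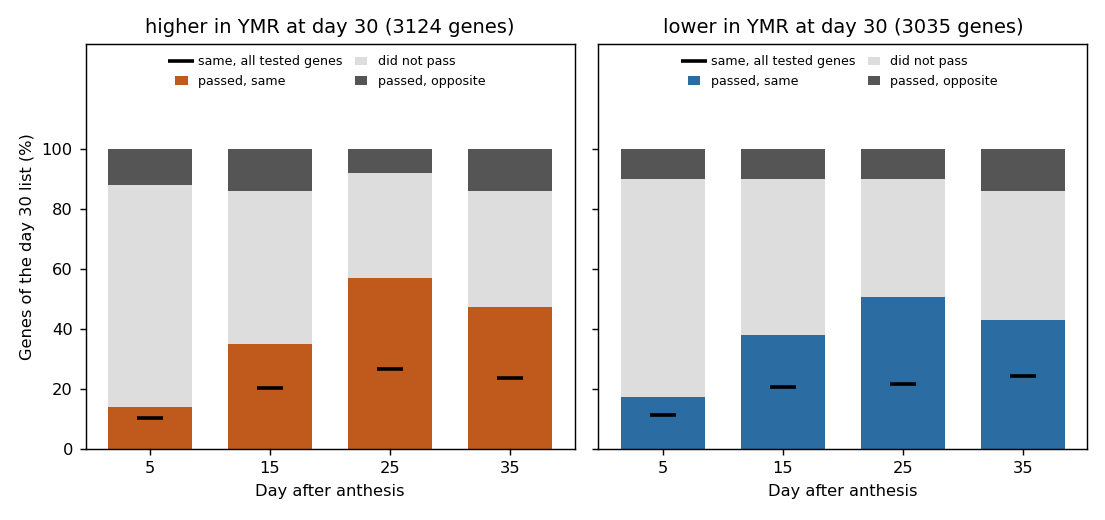
Share (%) of the genes higher (left) and lower (right) in YMR at day 30 that passed in the same direction, did not pass, or passed in the opposite direction at each other day. Black bars mark the share of all tested genes that passed in the same direction. The same-direction share is highest at day 25, at 56.9% and 50.5%.

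Whether the cultivar difference itself had moved since day 25 was tested as an interaction, the difference at day 30 minus that at day 25. It passed for 5527 genes (30.0%), 2520 with a positive value (13.7%) and 3007 with a negative one (16.3%). The surplus of negative values depended on the scaling: there were 2805 positive and 2708 negative with RLE factors, and 2935 and 2355 with library totals. This test shares the day 30 libraries with the comparison above. Among genes that passed with a mean of at least 10 CPM in a compared group, MELO3C023903 gave the highest value. Its value was 9.62 (SE 1.07, edgeR adjusted p = 9.28e-07). At day 30 it had 20.5, 23.6 and 22.5 CPM in YMR and 0.110, 0.00 and 0.0564 CPM in HDB, where 3 counts remained. The ratio of YMR to HDB was 410 (counting error alone allows 140 to 1993). At day 25 it had averaged 1.47 ± 0.32 CPM in YMR and 3.19 ± 1.0 CPM in HDB, lower in YMR and higher in HDB than at day 30.

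MELO3C010272 followed with 4.56 (SE 0.77, edgeR adjusted p = 0.000121). It had 79.8, 64.0 and 53.2 CPM in YMR and 0.275, 1.13 and 1.58 CPM in HDB at day 30, while at day 25 its means were 232 ± 80 CPM in YMR and 83.3 ± 23 CPM in HDB. Its mean levels were lower at day 30 than at day 25 in both cultivars, further so in HDB, and at day 35 they were 3.82 ± 0.72 CPM in YMR and 2.36 ± 1.8 CPM in HDB, a difference that did not pass (edgeR adjusted p = 0.346).

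Among genes that passed at the same minimum of 10 CPM, the most negative values rested on few counts or on an earlier day. MELO3C008215 had 0.180, 0.00 and 0.00 CPM in YMR at day 30 and 26, 27.3 and 13.5 CPM in HDB. At day 25 its 6 libraries held 2 counts, both in replicate 1 of YMR, and without that library the fitted change of -11.38 (SE 3.85, edgeR adjusted p = 0.0294) was no longer called (-8.37, edgeR adjusted p = 0.99997, the highest of its alternatives, which began at 4.84e-07). Its difference at day 30 alone was -8.36 (SE 0.81, edgeR adjusted p = 6.55e-08). MELO3C013523 did not pass at day 30, with 0.180, 1.0 and 0.602 CPM in YMR and 0.110, 0.921 and 0.00 CPM in HDB. Its change of -7.42 (SE 1.63, edgeR adjusted p = 0.00171) came from day 25, when it averaged 24.5 ± 3.2 CPM in YMR and 0.0823 ± 0.11 CPM in HDB. Without replicate 2 of HDB at day 30, which held 18 of that group's 20 counts, the change was -4.88 and was not called (edgeR adjusted p = 0.293, with 9.29e-07 to 0.293 over all alternatives).

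From day 30 to day 35 the cultivar difference moved in 6106 genes (33.1%), 2874 toward YMR (15.6%) and 3232 toward HDB (17.5%). This balance turned under other settings, to 3168 toward YMR and 2911 toward HDB with RLE factors, 3267 and 2518 with library totals, and 3466 and 3158 with DESeq2. Among genes that passed with a mean of at least 10 CPM in a compared group, MELO3C000732 had the highest value. Its value was 5.39 (SE 1.26, edgeR adjusted p = 0.00204), with a size decided by 1 library. At day 35 it averaged 2.69 ± 0.31 CPM in YMR and 1.02 ± 0.072 CPM in HDB. At day 30 it had 1.5, 0.885 and 1.07 CPM in YMR and 1.93, 2.20 and 52.1 CPM in HDB, and without replicate 3 of HDB the value was 2.22 and still passed. MELO3C008183 had the next value of these, 5.23 (SE 1.03, edgeR adjusted p = 0.000428). It averaged 14 ± 9.7 CPM in YMR and 2.31 ± 1.4 CPM in HDB at day 35, while at day 30 it had 0.300, 0.767 and 0.201 CPM in YMR, all below the 4.07, 1.18 and 2.82 CPM in HDB. The higher cultivar thus changed over 5 days, with both differences past the test (edgeR adjusted p = 0.000815 at day 35 and 0.0222 at day 30). This was not its only change of side. The gene was higher in YMR at day 25 (log2 difference 1.38, SE 0.56, edgeR adjusted p = 0.0461). At day 15 it was higher in HDB (-8.95, SE 0.76, edgeR adjusted p = 1.40e-08).

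Toward HDB, MELO3C013846 had the most negative value among the genes that passed at that minimum of 10 CPM. It had no count in the 3 YMR libraries of day 35 and a mean of 3.60 ± 3.5 CPM in HDB. Its level in YMR was lower by at least 64.2-fold. At day 30 it had 5.64, 2.24 and 28.6 CPM in YMR and 0.220, 1.28 and 0.0564 CPM in HDB. Its interaction value of -13.66 depends on the prior count of the fit (edgeR adjusted p = 0.000126) and was -12.05 without replicate 3 of YMR at day 30, the highest of its group. MELO3C023903 came next among them at -5.67 (SE 1.13, edgeR adjusted p = 0.000456). It was still higher in YMR at day 35, at 14 ± 6.7 CPM in YMR and 1.95 ± 0.77 CPM in HDB, so its gap was narrower than at day 30 and not turned.

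A last test set the day 30 difference against the mean difference of the other 4 days, the test needed to call a difference particular to day 30. It passed for 4131 genes (22.4%), 2069 positive (11.2%) and 2062 negative (11.2%). With library totals alone the split was 1162 positive and 3013 negative, with the median of all genes at -0.15 in place of -0.01. Of the 520 genes that passed at day 30 and at no other day, 303 passed this test too, in the direction of their day 30 difference. That number follows in part from how the 520 were chosen, because the test uses the same day 30 libraries. It is no separate evidence that their differences were particular to day 30.

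Again among genes that passed with a mean of at least 10 CPM in some group, MELO3C023903 had the highest value. Its value was 7.38 (SE 0.93, edgeR adjusted p = 7.16e-06). MELO3C020963 had 2.58, 2.01 and 6.96 CPM in YMR at day 30 and no count in HDB, so that YMR was higher by at least 68.9-fold. It had been higher in YMR at day 25 as well, at 37.5 ± 19 CPM in YMR and 2.72 ± 0.23 CPM in HDB. At day 15 it was not, at 48.3 ± 27 CPM in YMR and 64.2 ± 32 CPM in HDB. At day 35 it was again higher in YMR, at 2.71 ± 0.56 CPM against 0.0563 ± 0.059 CPM in HDB. That log2 difference was 5.52 (SE 1.15, edgeR adjusted p = 0.000458). The gene's changes from day 25 to day 30 and from day 30 to day 35 did not pass (edgeR adjusted p = 0.123 and 0.500). Its value of 7.23 (edgeR adjusted p = 0.0348) was lost without replicate 3 of YMR at day 30 (6.51, edgeR adjusted p = 0.0610) or without any 1 of the 3 HDB libraries of that day (7.23, edgeR adjusted p = 0.0658 to 0.0742). Over all its alternatives the adjusted p ran from 1.63e-05 to 0.0742.

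MELO3C016556 was the most negative of these, at -8.96 (edgeR adjusted p = 0.00196). Its differences were -3.37 (SE 0.45) on day 15 and -7.90 (SE 0.55) on day 25, and at day 35, with 4 counts in YMR, the fitted difference was -12.28 (SE 0.77). The change from day 25 to day 30 passed (-7.00, SE 1.99, edgeR adjusted p = 0.0110). That from day 30 to day 35 did not (2.62, SE 3.13, edgeR adjusted p = 0.574), so the difference was not set apart from that of day 35. MELO3C008215 was next of these at -6.72 (SE 2.02, edgeR adjusted p = 0.0198). It was also lower in YMR at day 35, with means of 1.08 ± 0.69 CPM in YMR and 34.4 ± 11 CPM in HDB.

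**Figure D5:**
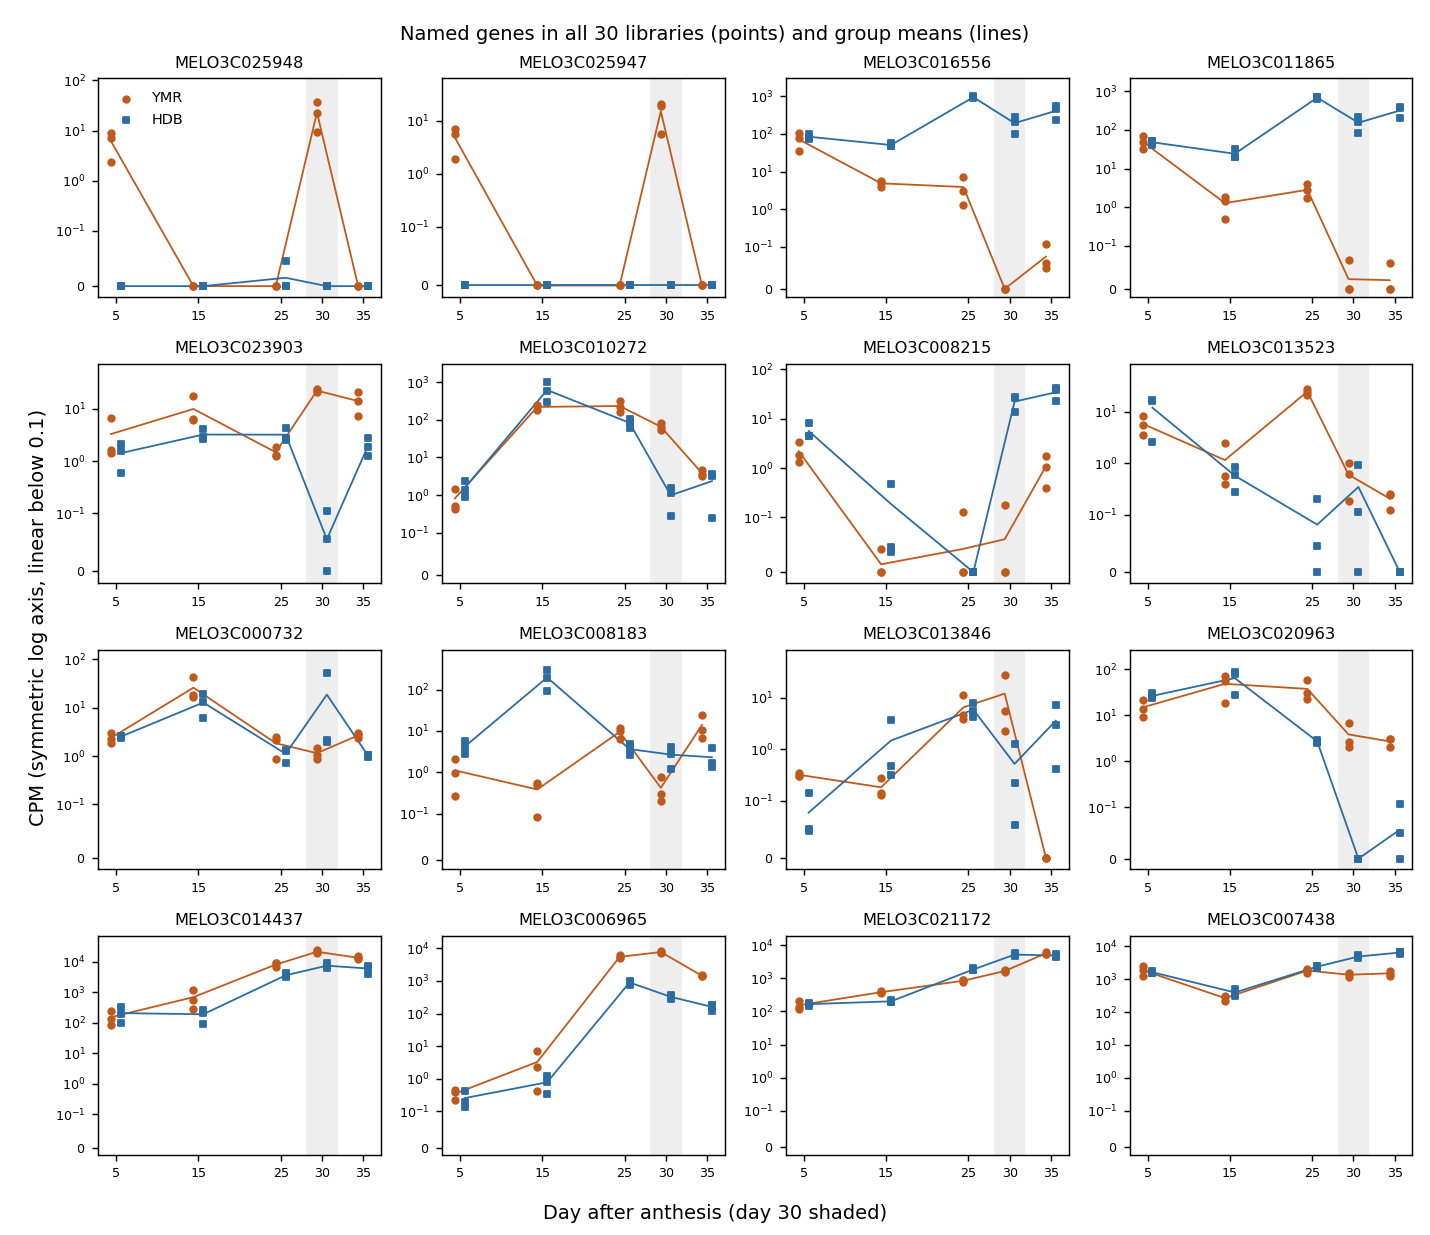
CPM of the 16 genes named in the text (symmetric log axis, linear below 0.1) in all 30 libraries by day after anthesis, with YMR as circles, HDB as squares and lines through the group means. Day 30 is shaded. MELO3C025948 and MELO3C025947 show reads in YMR at days 5 and 30 only, and MELO3C016556 and MELO3C011865 part from similar day 5 levels.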

How the data were processed

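Fruit was frozen in liquid nitrogen, and RNA was extracted with Trizol for Illumina libraries, per the labels' protocols. The authors deposited the counts as whole numbers, unnormalized, in 1 table with a column for each of 30 libraries. Per the submitters' processing notes, HISAT2 (alignment) and HTSeq (counting) were used, with no version named. Genome build, annotation, strand setting and treatment of shared reads: not given in the sources used here. No row stood for unassigned reads. Of the identifiers, 0 matched a table of 28628 genes of the assembly USDA_Cmelo_AY_1.0, so the planned lists of pathway and tissue marker genes were not applied.

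Counts were tested with edgeR 4.0.16 in R 4.3.3: filterByExpr (minimum count 10, total 15), TMM, 1 mean for each of 10 groups over all 30 libraries, robust quasi-likelihood F tests, and calls at an adjusted p under 0.05. The scripts were tested on simulated data. Standard errors are the absolute log2 value over the square root of F. Replicates of day 30 differed beyond counting noise (chi-square per degree of freedom 11.8 to 44.3) and were kept apart. No pairing by equal replicate numbers was seen across genes: the deviations of such libraries correlated at -0.07 to -0.02 at day 30. A pairing that touches few genes would not show in these correlations.

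Named genes passed the test in question with a mean of at least 10 CPM in a compared group. Of such genes, those with the largest positive and negative values were taken, 2 a direction. For day 30 the cultivars' libraries also had to stand apart. The genes with the widest CPM gaps were added after their values were seen. Members and rules were chosen with earlier results of these data known. Alternatives were RLE factors, library totals, DESeq2 1.42.0, no filter, no robust option, a block for the replicate number, a fit on the compared groups alone, and leaving out each library. Intervals and floors (3 counts over a group) cover counting error only.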

Additional observations from a re-analysis of the deposited data

Results flagged for a closer look

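The cultivar difference was not the same on all days, by a test of the difference itself. It differed between day 30 and day 25 in 5527 genes, between day 35 and day 30 in 6106, and between day 30 and the mean of the other 4 days in 4131 (edgeR quasi-likelihood test, adjusted p under 0.05).

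For day 30 minus day 25 the log2 values were 9.62 for MELO3C023903, 4.56 for MELO3C010272, -11.38 for MELO3C008215 and -7.42 for MELO3C013523. For day 35 minus day 30 they were 5.39 for MELO3C000732, 5.23 for MELO3C008183, -13.66 for MELO3C013846 and -5.67 for MELO3C023903. Against the mean of the other days they were 7.38 for MELO3C023903, 7.23 for MELO3C020963, -8.96 for MELO3C016556 and -6.72 for MELO3C008215. Where a group has few or no counts, as in MELO3C008215, MELO3C013846, MELO3C020963 and MELO3C016556, the fitted value depends on the prior count of the fit.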

How the results depend on the processing

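All 4 counts of genes stayed within 1.5 times under every alternative run. With all 3 libraries of a group kept, those for day 30 ran from 5850 without the low-count filter to 7135 with library totals alone, and DESeq2 gave 6615. Of the 6159 genes, 6113 kept their call and direction with RLE factors, 6122 with DESeq2, and 4731 with library totals. Leaving out 1 library gave 4938 to 5480 genes at day 30 and 4592 to 5101 for day 30 minus day 25. It gave 5153 to 5742 for day 35 minus day 30. Against the other days, where only libraries of day 30 were left out, it gave 2891 to 3562. With the replicate number as a block the counts were 6035, 5374, 6011 and 3959, and the block changed no call of a named gene. Of 304 values of the 16 named genes under alternatives, 295 kept direction and call, 9 kept the direction and lost the call, and 0 turned. The 9 are those given with their genes: MELO3C025948 and MELO3C025947 with DESeq2, and MELO3C014437, MELO3C008215, MELO3C013523 and MELO3C020963 without a single library. Without replicate 3 of YMR at day 30, which held its only YMR count, the fitted day 30 difference of MELO3C011865 was -14.59 in place of -12.49. Few or no reads stand behind genes under 1 CPM at day 30, and how far depth limited their calls was not tested.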

Other observations

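Of 14260 pairs of tested genes in neighbouring rows of the deposited table, both members passed at day 30 in the same direction in 1070 and in opposite directions in 661. The order of the rows is not explained in the sources used here, and no cause was tested. No share was computed for unlinked rows. One such pair, MELO3C025948 and MELO3C025947, had reads in the same 6 libraries, apart from 1 count of MELO3C025948 in HDB at day 25. Their counts stood in a ratio of 1.23, 1.26 and 1.26 in the YMR libraries of day 5, and of 1.72, 1.19 and 1.69 in those of day 30.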
